A study of Homo sapiens with 6 samples.

Results

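The inhibitory and checkpoint receptors of natural killer (NK) cells are a set of 10 genes, KLRC1, KLRD1, KLRB1, KIR2DL4, LILRB1, TIGIT, CD96, HAVCR2, LAG3 and PDCD1, taken by symbol from the 36601 genes of the count table. All 10 were listed, and 8 of them reached the level needed for testing, a value above 1 CPM in at least 2 libraries. For this filter CPM was the count of a gene relative to the unscaled total of its library. The CPM values given below are relative to the TMM-scaled size of the library. The libraries came from NK-92, a human line derived from an NK cell lymphoma and dependent on interleukin (IL)-2. The control cells stably carried a control short hairpin RNA (shCtrl), the other cells a hairpin against the long non-coding RNA host gene of miR-155 (shmiR155HG), and each group had 3 libraries. Every library, shCtrl included, was made from cells given 1000 U/mL IL-2 and 10 ng/mL IL-12 for 12 h, so all values below describe cytokine-stimulated cells of 1 malignant line. Replicates are not described as separate cultures or transductions, so the p-values measure the spread between these libraries, which may be technical.

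Inhibitory receptors hold NK cells back when they meet their ligands. Several carry an immunoreceptor tyrosine-based inhibitory motif (ITIM) in the cytoplasmic tail, which recruits phosphatases that oppose the kinases of activating receptors. The best known group reads HLA class I molecules and spares healthy cells, and a second group, shared with T cells and known as immune checkpoints, is studied as a target of cancer immunotherapy. RNA levels do not give the amount of receptor on the cell surface, which was not measured here.

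In shmiR155HG cells KIR2DL4 was lower, KLRC1 and CD96 were slightly higher, and the other 5 tested receptors did not pass the test. Tests were run over 12263 genes with the quasi-likelihood test of edgeR at a Benjamini-Hochberg adjusted p under 0.05, which called 15.3% of all genes, 7.26% as higher and 8.02% as lower in shmiR155HG. Of the 8 receptors 2 were called higher and 1 lower, and the median log2 fold change of the 8 was -0.02, against 0.00097 over all genes tested. The 3 values of one group lay entirely above those of the other for 6 of the 8 receptors, where 30.8% of all genes tested did so.

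**Figure D1:**
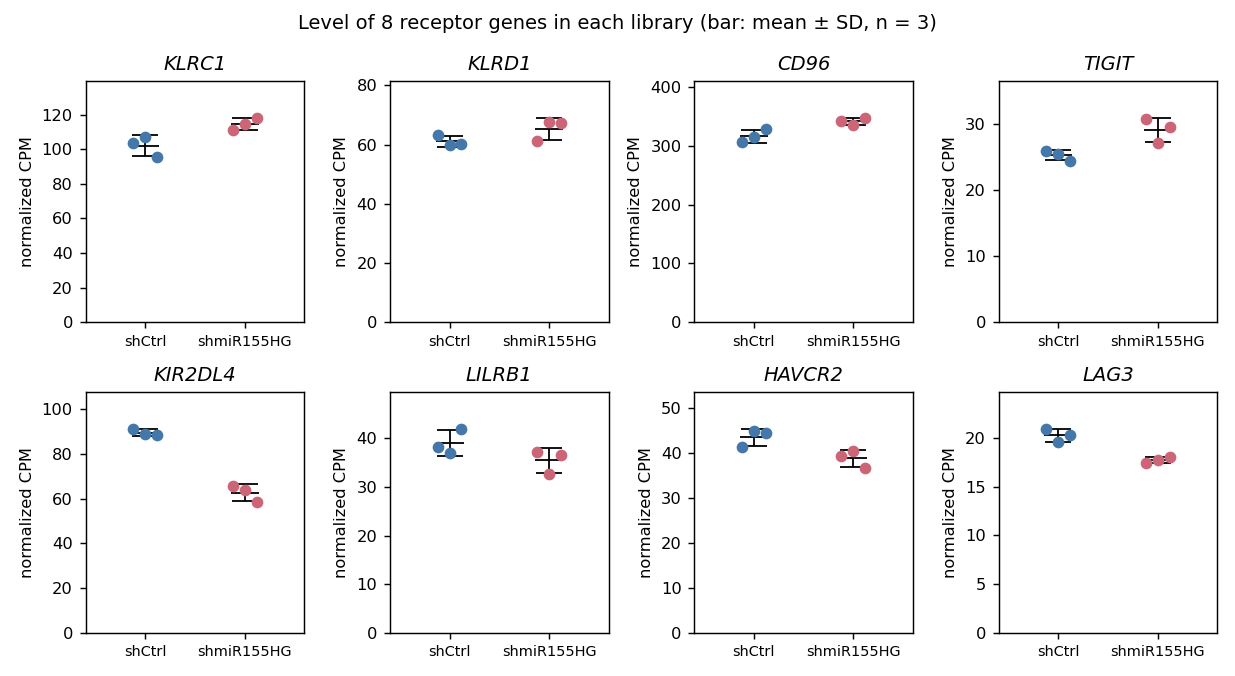
Normalized CPM (y axis, from 0) of the 8 tested receptors in the 3 shCtrl (blue) and 3 shmiR155HG (red) libraries, one point per library, with mean ± SD in black. KIR2DL4 falls from 88.2 to 91.3 CPM in shCtrl down to 58.4 to 65.5 CPM in shmiR155HG, while the 2 groups of KLRD1 and of LILRB1 overlap.

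The libraries held 33454786 to 39157264 counts. MIR155HG, the target of the hairpin, was listed with 73, 67 and 62 counts in the shCtrl libraries and 28, 19 and 10 in the shmiR155HG libraries (log2 fold change -1.78 ± 0.43 SE, adjusted p = 0.0045, edgeR), a direction that matches the labels. Of 10 NK markers, 9 were above the testing level, and their summed level was 4558 to 4611 CPM in shCtrl and 4010 to 4174 CPM in shmiR155HG. GZMB (granzyme B) carried this difference, with 1164 to 1242 and 511 to 570 CPM, and without it the sums were 3363 to 3447 and 3500 to 3604 CPM. Of the 9, 4 were called lower (GZMB, GZMA, PRF1 and NCR3) and 2 higher (IL2RB and EOMES), or 66.7% beside 15.3% of all genes. Of 10 T cell markers 6 were under 1 CPM in every library. The summed levels of 572 to 587 and 574 to 598 CPM were carried by CD3E, TRBC1, TRAC and THEMIS. CD3E alone had a mean of 330 CPM in shCtrl and 335 CPM in shmiR155HG. The B cell list was carried by PAX5 (summed 229 to 264 and 341 to 344 CPM, 4 of 6 markers under 1 CPM in all) and the myeloid list by ITGAX (128 to 144 and 103 to 108 CPM, 6 of 8 under 1 CPM in all). Replication-dependent histone genes took 0.00798% to 0.00862% of the counts in shCtrl and 0.0142% to 0.0159% in shmiR155HG, and mitochondrial genes took 2.13% to 2.18% and 2.35% to 2.48%. The part of these differences in the results below was not tested. Less RNA per cell and fewer cells expressing a gene cannot be told apart in bulk libraries.

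Ordered by level per length (CPM per kilobase of annotated exons, mean ± SD, n = 3), CD96 stood first in shCtrl cells with 56.4 ± 1.98, followed by KIR2DL4 with 54.3 ± 0.97 and KLRC1 with 37.4 ± 2.16. The ranges of CD96 and KIR2DL4 overlapped, so their order is not resolved. Much lower came HAVCR2 with 8.17 ± 0.37, LILRB1 with 7.10 ± 0.48 and LAG3 with 6.64 ± 0.22, of which LILRB1 and LAG3 overlapped. TIGIT had 4.15 ± 0.13 and KLRD1 3.51 ± 0.11 CPM per kilobase. KLRD1 is annotated with 17412 bases of exon, a length that divides its level. With the length of the canonical transcript, KLRC1 (71.1) stood above KIR2DL4 (60.6) and the other places were unchanged. In shmiR155HG cells the levels per length of KLRC1 and KIR2DL4 were 42.1 ± 1.25 and 38.0 ± 2.27. KLRB1 and PDCD1 were not detectable at a meaningful level in either group.

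KIR2DL4 encodes a killer cell immunoglobulin-like receptor that has an ITIM but also pairs with an activating adaptor, and HLA-G has been described as its ligand. The gene lies on the plus strand of chr19:54803610-54814517 (hg38) in the leukocyte receptor complex, with 7 exons in its canonical transcript. Its promoter is printed here, because this receptor moved most, beside that of KIR3DL3, the other killer immunoglobulin-like receptor gene that passed the test, as RefSeq gives them on GRCh38.p14 (250 bases before to 50 after the gene start, plus strand, chr19:54803360-54803659 and chr19:54724192-54724491). Capitals mark matches on either strand to a RUNX motif (TGTGGT) or a STAT motif (TTCNNNGAA).
KIR2DL4: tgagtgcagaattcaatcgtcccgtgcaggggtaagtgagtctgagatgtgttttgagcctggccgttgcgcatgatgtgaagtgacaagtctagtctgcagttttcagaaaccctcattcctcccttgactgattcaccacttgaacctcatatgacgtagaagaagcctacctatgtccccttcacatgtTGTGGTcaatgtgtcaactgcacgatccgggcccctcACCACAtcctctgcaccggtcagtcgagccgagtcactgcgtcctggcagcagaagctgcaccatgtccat
KIR3DL3: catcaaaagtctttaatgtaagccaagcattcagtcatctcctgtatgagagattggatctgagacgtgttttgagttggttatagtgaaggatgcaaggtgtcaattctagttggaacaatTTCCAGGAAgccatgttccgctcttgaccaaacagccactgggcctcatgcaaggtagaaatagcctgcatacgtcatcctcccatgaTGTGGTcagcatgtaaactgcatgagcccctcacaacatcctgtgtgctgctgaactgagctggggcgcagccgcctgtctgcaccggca
The aligned promoters of KIR2DL4 and KIR3DL3 were identical at 59.7% of positions, and KIR2DL4 shared 64.0% with KIR2DL3 and 63.0% with KIR3DL1. By contrast, KIR3DL1 and KIR2DL3 shared 95.02%. The KIR2DL4 window held 2 RUNX matches, the upstream one at position -58 from the gene start, and no STAT match. KIR3DL3, KIR2DL3 and KIR3DL1 each held 1 RUNX and 1 STAT match. RUNX matches were in 13.1% and STAT matches in 7.66% of 35116 promoters of this length, and a match is a description of letters, not a bound site.

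In the shCtrl libraries KIR2DL4 had 3557, 3250 and 3444 counts (91.3, 89.0 and 88.2 CPM), and in the shmiR155HG libraries 2518, 2441 and 1957 counts (65.5, 64.0 and 58.4 CPM). Every shmiR155HG library was below every shCtrl library. The fitted level in shmiR155HG was 70.0% of shCtrl (95% interval 64.4% to 76.2%), or -0.51 ± 0.059 SE on the log2 scale (adjusted p = 3.33e-07, edgeR). It stayed between -0.56 and -0.46 under 16 alternative settings, each of which kept the call. Killer immunoglobulin-like receptor genes are close copies of each other and their number differs between people, so reads may have been shared among them when they were counted.

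The relatives of KIR2DL4 in the count table were all expressed at a far lower level. KIR3DL3, a framework gene of the same cluster, had 322, 306 and 309 counts in shCtrl and 147, 164 and 111 in shmiR155HG, also without overlap (log2 fold change -1.10 ± 0.19 SE, adjusted p = 0.000126, edgeR). KIR2DL3, an HLA-C receptor, had 122, 106 and 70 counts against 52, 65 and 45 (-0.83 ± 0.33 SE, adjusted p = 0.0975, edgeR). KIR3DL1, an HLA-B receptor, had 96, 54 and 87 counts against 80, 64 and 47 (-0.26, adjusted p = 0.69, edgeR). The fitted log2 fold changes of all 4 tested genes of this family were below 0 (median -0.67). Of the 4, 2 passed the test, where 15.3% of all genes did. KIR2DL1 and KIR3DL2 were below the testing level, with at most 23 counts in a library. KIR2DL3 and KIR3DL1 are named because of their kinship with KIR2DL4, after their values were seen.

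KLRC1 encodes NKG2A, which forms a heterodimer with CD94, the product of KLRD1, and recognizes HLA-E. Both genes lie in the NK gene complex, KLRC1 on the minus strand of chr12:10442264-10454685 and KLRD1 on the plus strand of chr12:10226058-10329608. KLRC1 had 4044, 3907 and 3728 counts in shCtrl (104, 107 and 95.5 CPM) and 4278, 4370 and 3957 in shmiR155HG (111, 115 and 118 CPM). On the CPM scale the groups did not overlap. Its level in shmiR155HG was 112% of shCtrl (95% interval 104% to 121%), or 0.17 ± 0.051 SE on the log2 scale (adjusted p = 0.0252, edgeR). The call was lost without shCtrl replicate 3 (0.12, adjusted p = 0.115), without shmiR155HG replicate 2 (0.17, adjusted p = 0.0845) and without shmiR155HG replicate 3 (0.15, adjusted p = 0.117).

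KLRD1 had 63.2, 59.8 and 60.2 CPM in shCtrl and 61.2, 67.7 and 67.4 CPM in shmiR155HG. The groups overlapped, because shmiR155HG replicate 1 lay within the shCtrl range. The log2 fold change of KLRD1 was 0.098 with a 95% interval of -0.031 to 0.228 (adjusted p = 0.338, edgeR), an interval that holds the fitted change of its partner KLRC1. CD94 also pairs with the activating receptor NKG2C, encoded by KLRC2, which had 14.8, 15.2 and 13.1 CPM in shCtrl and 17.0, 18.5 and 16.3 CPM in shmiR155HG (log2 fold change 0.27 ± 0.12 SE, adjusted p = 0.139, edgeR). The ratio of KLRC1 to KLRC2 counts within a library was 7.02, 7.01 and 7.29 in shCtrl and 6.55, 6.18 and 7.25 in shmiR155HG. This ratio was lower by 0.096 on the log2 scale in shmiR155HG with overlapping groups (exact two-sided permutation test, p = 0.3, 0.4 adjusted over 3 ratios), where 3 against 3 libraries cannot give a p below 0.1. The difference was -0.044 without shmiR155HG replicate 2 and -0.16 without shmiR155HG replicate 3. KLRC1 and KLRC2 are near-identical in part and share up to 37 bases of annotated exon on the same strand, so their separate counts are uncertain.

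KLRB1 encodes CD161, a C-type lectin-like receptor for CLEC2D (chr12:9594551-9607916, minus strand). It had 2 counts in shCtrl replicate 3, 2 in shmiR155HG replicate 1 and 0 in the other 4 libraries. This is at or under the limit of 3 counts that a count of 0 allows, or 0.0897 CPM in the shallowest library, and covers counting error only. A change in KLRB1 was therefore not detectable at this depth.

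LILRB1, a leukocyte immunoglobulin-like receptor with several ITIMs, binds a broad range of HLA class I molecules. The gene (chr19:54617158-54638022, plus strand) lies in the same complex as KIR2DL4. It had 38.2, 36.9 and 42.0 CPM in shCtrl and 37.2, 32.6 and 36.6 CPM in shmiR155HG. The ranges overlapped, since shmiR155HG replicate 1 was above shCtrl replicate 2. The log2 fold change was -0.14 (95% interval -0.303 to 0.025, adjusted p = 0.273, edgeR), and -0.081 without shCtrl replicate 3 or without shmiR155HG replicate 2. An antisense gene covers 355 bases of its exons, and whether strand was used in counting is not given in the sources used here.

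TIGIT and CD96 recognize poliovirus receptor, a ligand they share with the activating receptor CD226 (DNAM-1), and each also binds nectins. Both genes are on chromosome 3 (CD96 on chr3:111292719-111665750 and TIGIT on chr3:114276913-114310288, each on the plus strand). By CPM, which is not divided by gene length, CD96 was the highest of the 10 receptors. It had 11954, 11502 and 12833 counts in shCtrl (307, 315 and 329 CPM) and 13191, 12802 and 11633 in shmiR155HG (343, 336 and 347 CPM). All shmiR155HG libraries were above all shCtrl libraries, by a small margin. CD96 rose to 108% of shCtrl (95% interval 103% to 114%), or 0.11 ± 0.036 SE on the log2 scale (adjusted p = 0.0341, edgeR). This call held in only 1 of the 6 fits that left out a library, the one without shCtrl replicate 3 (0.14, adjusted p = 0.00589), and the other 5 gave 0.089 to 0.12 with adjusted p from 0.0652 to 0.152.

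TIGIT had 25.9, 25.5 and 24.4 CPM in shCtrl and 30.7, 27.1 and 29.5 CPM in shmiR155HG, again without overlap. Its fitted change of 0.20 ± 0.088 SE on the log2 scale was nominally larger than that of CD96, but it did not pass the test (adjusted p = 0.131, edgeR), with a 95% interval for this gene alone of 0.021 to 0.384. CD226 was a low gene, with 83, 69 and 33 counts in shCtrl and 97, 133 and 66 in shmiR155HG (0.72 ± 0.35 SE, adjusted p = 0.192, edgeR). Its exons overlap those of DOK6 on the other strand by 112 bases. The ratio of TIGIT to CD226 counts was 12.1, 13.4 and 28.5 in shCtrl and 12.1, 7.75 and 14.9 in shmiR155HG, and that of CD96 to CD226 was 143, 166 and 383 against 135, 95.9 and 175. The differences were -0.58 (p = 0.4) and -0.67 (p = 0.3) on the log2 scale with overlapping groups and did not pass the exact permutation test (0.4 adjusted over 3 ratios for each). They shrank to -0.19 and -0.23 without shCtrl replicate 3, and to -0.31 and -0.44 without shmiR155HG replicate 2.

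HAVCR2 encodes TIM-3, a checkpoint receptor for galectin-9 and CEACAM1, on the minus strand of chr5:157085422-157142869. It had 41.2, 44.7 and 44.3 CPM in shCtrl and 39.3, 40.3 and 36.6 CPM in shmiR155HG. The groups did not overlap, though shmiR155HG replicate 2 and shCtrl replicate 1 were close. The log2 fold change was -0.16 ± 0.073 SE with a 95% interval of -0.313 to -0.012 and an adjusted p of 0.145 (edgeR).

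LAG3, a CD4-related checkpoint receptor that binds HLA class II and FGL1, lies on the plus strand of chr12:6772512-6778455. It had 817, 717 and 792 counts in shCtrl (21.0, 19.6 and 20.3 CPM) and 670, 677 and 605 in shmiR155HG (17.4, 17.8 and 18.1 CPM). Every shmiR155HG library was below every shCtrl library, yet the change did not pass the test (log2 fold change -0.19 ± 0.10 SE, 95% interval -0.406 to 0.019, adjusted p = 0.235, edgeR). With counts corrected for the GC content of each transcript, an alternative added after the data were seen, LAG3 passed it (-0.31, adjusted p = 0.0442).

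PDCD1 encodes PD-1 (chr2:241849884-241858894, minus strand). It had 0 counts in all 6 libraries, which allows up to 3 counts per library, and no change can be given.

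**Figure D2:**
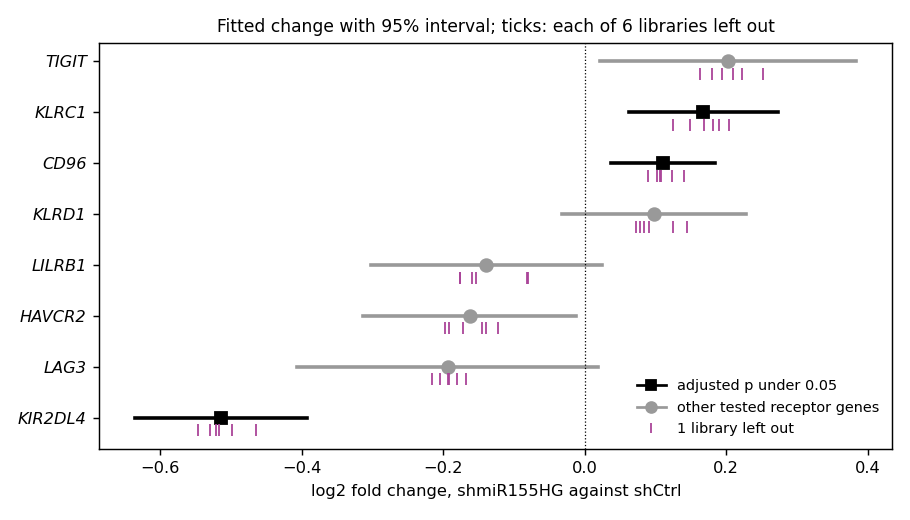
Fitted log2 fold change in shmiR155HG against shCtrl (x axis) of the 8 tested receptors (y axis), with the 95% interval of each, in black squares for adjusted p under 0.05 and grey circles otherwise, and purple ticks for the 6 fits that leave out 1 library. KIR2DL4 at -0.51 stands apart from the other 7, which lie between -0.19 and 0.20, and none of the left-out libraries moves a gene across 0.

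Because the hairpin targets the host transcript of miR-155, the receptors were searched for sites of miR-155-5p (RefSeq, GRCh38.p14, chr21:25573983-25574006, plus strand). The mature sequence is shown with its seed, bases 2 to 8, in capitals, together with the 2 matches found in the 3′ untranslated regions of the receptors, where capitals mark the searched match.
miR-155-5p: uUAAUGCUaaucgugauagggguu
KLRD1: tgttgctaAGCATTAcgtctgtg
LILRB1: cagaaagtGCATTAAactgaatc
The KLRD1 site (chr12:10322948-10322970, hg38, plus strand) matches bases 2 to 8 and lies in an annotated 3′ untranslated region of 14815 bases. The LILRB1 site (chr19:54637104-54637126, plus strand) matches bases 2 to 7 and is followed by an A, the last capital, which lies outside the seed. A match to bases 2 to 8 was thus in 1 of the 10 receptors, against 11.9% of the 10763 genes tested that have an annotated 3′ untranslated region, and 7.36% of the genes holding one were called higher in shmiR155HG, beside 7.26% of all genes. Levels of the mature miRNA were not measured in these poly(A) libraries, and sites of miR-6756-5p were not analysed here.

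The ligands of these receptors, as expressed by the NK-92 cells themselves, included several HLA class I genes that rose. All 5 lists of related genes below were chosen with earlier results of these data known. The shares called in them are therefore a description only. Of 19 ligand genes 12 were tested, and 5 were called higher and 2 lower (58.3%, beside 15.3% of all genes). The median log2 fold change of the tested ligand genes was 0.12. HLA-E, the ligand of NKG2A/CD94, had 313, 310 and 312 CPM in shCtrl and 367, 378 and 365 CPM in shmiR155HG (log2 fold change 0.25 ± 0.034 SE, adjusted p = 4.91e-06, edgeR). HLA-B (0.23, adjusted p = 8.88e-07) and HLA-C (0.23, adjusted p = 2.80e-06), read by KIR3DL1 and KIR2DL3 respectively, moved by nearly the same amount and kept the call without any one library. Reads from HLA genes, which are highly similar and variable, may be shared among them. HLA-G, described as a ligand of KIR2DL4, had at most 12 counts in a library and was not tested.

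CLEC2D, the ligand of CD161, had 74.7, 77.7 and 80.3 CPM in shCtrl and 94.1, 98.2 and 119 CPM in shmiR155HG, all higher (0.42 ± 0.070 SE, adjusted p = 0.000191, edgeR), while its receptor gene KLRB1 was near 0. CD274, which encodes the PD-1 ligand PD-L1, was lower, with 8.86, 8.46 and 9.17 CPM in shCtrl and 4.50, 6.66 and 6.54 CPM in shmiR155HG (-0.58 ± 0.18 SE, adjusted p = 0.0248, edgeR). The CD274 call was lost without shCtrl replicate 1, 2 or 3, where the change stayed at -0.58, -0.61 and -0.55 (adjusted p = 0.0667, 0.0551 and 0.0728), and without shmiR155HG replicate 1, where it was -0.42 (adjusted p = 0.144). The poliovirus receptor gene PVR and FGL1 were below the testing level, and the galectin-9 gene LGALS9 gave -0.037 (adjusted p = 0.909).

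Among 26 other inhibitory receptors 16 were tested, and 2 were called higher and 2 lower (25%, beside 15.3% of all genes). Their median log2 fold change was 0.04. CD200R1, the receptor for the surface protein CD200, had 196, 195 and 180 CPM in shCtrl and 283, 278 and 280 CPM in shmiR155HG. This change of 0.56 ± 0.039 SE (adjusted p = 4.03e-11, edgeR) was larger in size than the fitted change of each of the 8 tested receptors, a difference that was not tested. VSIR, which encodes the checkpoint protein VISTA, had 62.0, 64.3 and 62.1 CPM against 76.3, 81.0 and 79.2 CPM (0.33 ± 0.058 SE, adjusted p = 0.000199, edgeR). On the lower side were KIR3DL3, given above, and CD244 (2B4), a receptor for CD48 that can activate or inhibit, at -0.12 (adjusted p = 0.0276, edgeR), whose call was lost in 4 of the 6 fits without a library (shCtrl replicates 1 and 2 and shmiR155HG replicates 1 and 3, adjusted p up to 0.148). CTLA4 (-0.47, adjusted p = 0.229) and PVRIG (0.041, adjusted p = 0.702), checkpoint receptors that did not pass, were named after their values were seen.

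The activating counterparts and adaptors of the set, 9 of 13 genes tested, held no called gene, beside 15.3% of all genes. Their median log2 fold change was 0.11. Some of them were low, with wide intervals, so a missing call does not show a stable level. FCER1G had 77, 66 and 64 counts in shCtrl and 48, 34 and 29 in shmiR155HG (-0.85 ± 0.38 SE, adjusted p = 0.14, edgeR). At an unadjusted p under 0.05 the edgeR test gave 2 of these genes, KLRC2 and FCER1G, and DESeq2, limma-voom and the edgeR exact test with its fold limit called 0, 0 and 0. KLRK1, which encodes NKG2D, had 30.1, 30.4 and 26.1 CPM in shCtrl and 28.0, 27.2 and 23.1 CPM in shmiR155HG (-0.14, adjusted p = 0.353, edgeR). The list does not cover all activating receptors. NCR3, which encodes the activating receptor NKp30 and was counted with the NK markers, was called lower (-0.24 ± 0.047 SE, adjusted p = 0.000577, edgeR).

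**Figure D3:**
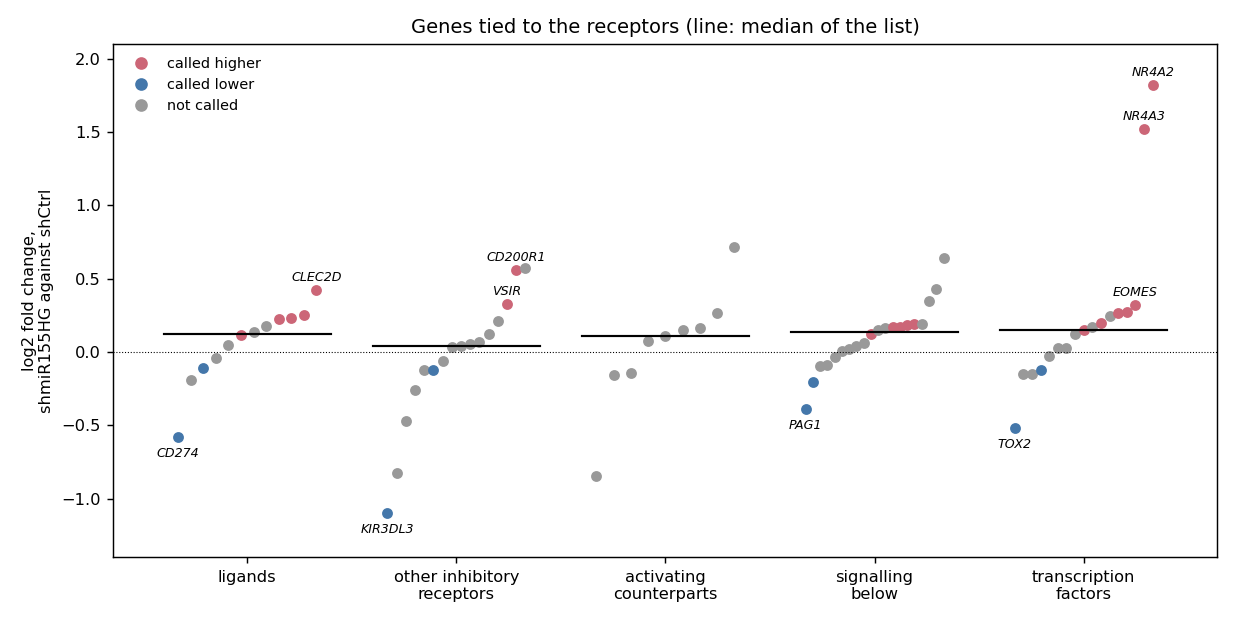
Fitted log2 fold change in shmiR155HG against shCtrl (y axis) of the tested genes in 5 lists tied to the receptors (x axis), one point per gene sorted within its list, red for called higher, blue for called lower and grey for not called, with the median of each list as a black line. NR4A2 (1.82) and NR4A3 (1.52) lie above all other points and KIR3DL3 (-1.10) below.

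Of 20 genes for signalling below these receptors, all tested, 5 were called higher and 2 lower (35%, beside 15.3% of all genes, median 0.13). PAG1, an adaptor that holds the kinase CSK at the membrane, had 162, 152 and 161 CPM in shCtrl and 125, 119 and 119 CPM in shmiR155HG (-0.39 ± 0.045 SE, adjusted p = 3.03e-07, edgeR). LCK, a kinase that phosphorylates receptor tails, INPP5D, the lipid phosphatase SHIP-1 recruited by ITIMs, and CSK rose by 0.19, 0.18 and 0.17 (adjusted p = 0.00306, 0.00332 and 0.00349, edgeR). These 3 calls held without any one library and were lost with the GC correction (adjusted p = 0.0678, 0.0702 and 0.303). BAG6, a partner of TIM-3, was at 0.17 (adjusted p = 0.00835), but not with the GC correction (adjusted p = 0.217) nor without shCtrl replicate 1 or shmiR155HG replicate 3. DGKZ, a kinase that removes diacylglycerol, was at 0.12 (adjusted p = 0.0258) but at 0.0014 (adjusted p = 0.988) with that correction, and its call was also lost without replicate 1 or 2 of either group.

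Of 20 transcription factors known to control checkpoint receptors in T or NK cells 17 were tested. Of the 17, 7 were called higher and 2 lower (52.9%, beside 15.3% of all genes), with a median of 0.15. NR4A2, an orphan nuclear receptor induced by activation, had 12.0, 13.8 and 13.7 CPM in shCtrl and 45.5, 46.6 and 47.4 CPM in shmiR155HG, the largest change of the 5 lists (1.82 ± 0.089 SE, adjusted p = 1.32e-14, edgeR). Its relative NR4A3 was far lower, with 0.95, 0.58 and 0.85 CPM against 2.65, 1.47 and 2.72 CPM (1.52 ± 0.39 SE, adjusted p = 0.00763, edgeR). TOX2, an HMG-box factor, was lower, with 105, 101 and 114 CPM against 69.5, 73.1 and 80.9 CPM (-0.52 ± 0.061 SE, adjusted p = 5.27e-07, edgeR), whereas its relative TOX was higher by 0.20 (adjusted p = 0.000194). The T-box factors EOMES (0.32, adjusted p = 7.74e-07) and TBX21 (0.27, adjusted p = 4.99e-06), which direct NK cell maturation, both rose. All 6 of these calls held without any one library. No T-box (TCACACC) or NR4A (AAAGGTCA) motif was found in the RefSeq promoters of the 7 receptors that matched one (3.45% and 1.22% of all promoters hold them). RUNX motifs were in 3 of the 7, CD96, TIGIT and KIR2DL4, and a STAT motif in CD96 alone, whose promoter (GRCh38.p14, chr3:111541947-111542246, plus strand) is shown with RUNX and STAT matches in capitals because it held both.
CD96: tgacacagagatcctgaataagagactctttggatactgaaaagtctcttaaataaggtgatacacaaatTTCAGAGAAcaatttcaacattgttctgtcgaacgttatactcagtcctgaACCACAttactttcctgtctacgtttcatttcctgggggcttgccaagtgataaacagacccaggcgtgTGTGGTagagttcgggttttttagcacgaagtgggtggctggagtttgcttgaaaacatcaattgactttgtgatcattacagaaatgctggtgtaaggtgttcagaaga

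The neighbourhood of the receptors was described from all tested genes starting within 500 kb of one of the 10, leaving out the receptors themselves. Starts here are those of GENCODE, which for CD96 (chr3:111292719) and TIGIT (chr3:114276913) lie upstream of the RefSeq promoters searched for motifs. Of 105 such genes 8 were called higher and 3 lower, or 10.5%, beside 15.3% of all genes. In the leukocyte receptor complex, of 30 genes around LILRB1 and KIR2DL4, 1 was called higher and 3 lower (13.3%). KIR3DL3 and LAIR2 were lower with calls that held without any one library. LENG1 was also lower (-0.64, adjusted p = 0.0328) and the non-coding AC010327.7 higher (1.53, adjusted p = 0.0284), with calls lost in some fits without 1 library. LAIR2, a secreted collagen-binding relative of the inhibitory receptor LAIR1, started 306 kb from KIR2DL4 and 119 kb from LILRB1. LAIR2 had 23.7 ± 2.82 CPM in shCtrl and 16.3 ± 0.99 CPM in shmiR155HG (SD, n = 3, log2 fold change -0.54 ± 0.11 SE, adjusted p = 0.00089, edgeR). The median log2 fold change of the 30 genes was 0.03, close to 0. Within 250 kb the median was -0.29 over 13 genes, of which 2 were called, both lower (15.4%, beside 15.3% of all genes). KIR3DL3, KIR2DL3 and KIR3DL1, whose reads may be shared, are among these 13.

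In the NK gene complex 2 of 19 tested neighbours were called (10.5%, beside 15.3% of all genes), both higher, CLEC2D and GABARAPL1. GABARAPL1, an autophagy gene that starts 13.6 kb from KLRD1, had 15.7 ± 2.05 CPM in shCtrl and 23.1 ± 1.99 CPM in shmiR155HG (SD, n = 3, 0.55 ± 0.11 SE, adjusted p = 0.00113, edgeR). Of the 8 tested killer cell lectin-like receptor genes KLRC1 alone passed the test, where 15.3% of all genes did. The median of the 8 was 0.13. Around LAG3 4 of 38 tested genes were called, all higher (10.5%, beside 15.3% of all genes). Among them was CLSTN3 (0.27, adjusted p = 0.0047, edgeR), whose call was lost with the GC correction (adjusted p = 0.0561). Another was the non-coding C1RL-AS1 (0.72, adjusted p = 0.00592, edgeR), whose call was lost without shmiR155HG replicate 2.

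**Figure D4:**
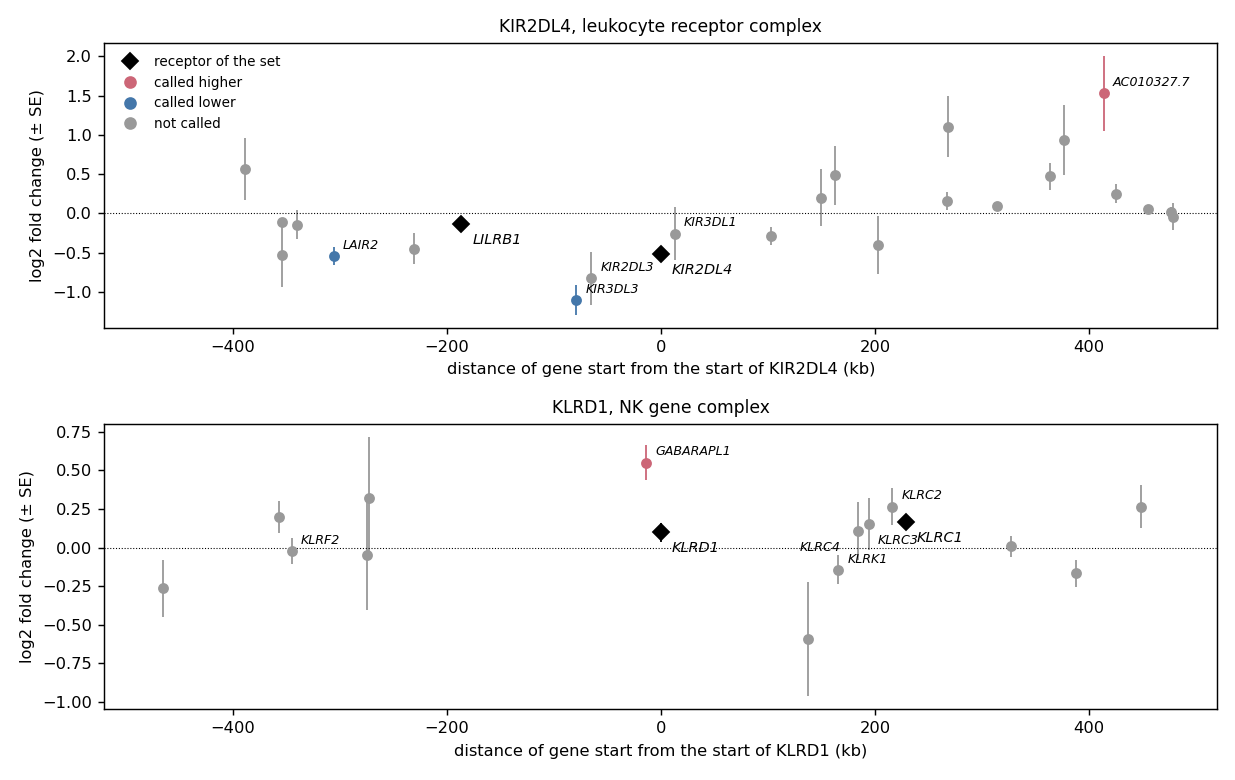
Fitted log2 fold change ± SE (y axis) of tested genes against the distance of their start from the start of KIR2DL4 (upper panel) or KLRD1 (lower panel) in kilobases (x axis), within 500 kb of that gene, with black diamonds for receptors of the set and red, blue and grey circles for genes called higher, called lower and not called. The killer immunoglobulin-like receptor genes beside KIR2DL4 lie between -1.10 and -0.26, and genes farther away lie on both sides of 0.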

How the data were processed

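Poly(A) RNA of 6 NK-92 libraries (3 shCtrl, 3 shmiR155HG) was sequenced in pairs of 150 bases on an Illumina NovaSeq instrument. The authors deposited raw gene counts, made with HISAT2 on hg38, StringTie and its count script (versions, annotation release and strand setting are not given in the sources used here). All 6 columns matched a title. For replicates 2 and 3 of shmiR155HG the treatment label names another number after shmiR, and the titles were followed.

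Counts were tested with edgeR 4.0.16 (R 4.3.3) by the robust quasi-likelihood test after TMM scaling, with Benjamini-Hochberg adjustment. The 12263 genes tested had CPM above 1 in at least 2 libraries, by unscaled library totals. Normalized CPM were computed by edgeR from the TMM-scaled library sizes. Standard errors are the log2 fold change over the root of the F value. Depth ran from 33454786 to 39157264 counts per library, and floors of 3 counts cover counting error only. The fit was tested on simulated counts. It called 70.1% of genes given a log2 change of 0.5 in size and 88.7% of those given 1. Of its calls, 7.23% fell on genes given no change. Smaller changes were not simulated. Gene positions came from GENCODE release 44, which 36366 of the 36601 IDs matched, and promoters and miR-155-5p from RefSeq. Promoter tables held 7 of the 10 receptors.

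Alternatives were DESeq2 1.42.0, limma-voom (limma 3.58.1), the edgeR exact test at unadjusted p under 0.01 and fold over 1.2, other scalings and filters, counts halved, a replicate block, leaving out each library and a GC correction. Ratios took a pseudocount of 0.5 counts. The 10 receptors and the gene lists were chosen with earlier results of these data known. Named were all receptors, the target, every receptor in a ratio, and up to 6 called genes per list or neighbourhood by adjusted p; others are stated as chosen later. An item among the ligands is counted but not reported here by name.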

Additional observations from a re-analysis of the deposited data

How the results depend on the processing

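KIR2DL4 and KIR3DL3 kept their direction and call under all 16 alternatives, and no fold change of the 8 tested receptors, KIR3DL3, HLA-E or CD274 reversed (176 values, 0 reversed). The calls of KLRC1 and CD96 were lost in some fits without 1 library. Receptors called higher numbered 2, and 0 to 1 without 1 library, 1 (KLRC1) without a filter on low counts, and 0 by the exact test with its fold limit of 1.2. Receptors called lower numbered 1, and 2 with the GC correction, which added LAG3. Over all genes 890 were higher and 984 lower, with 551 and 466 by the exact test, and with 578 to 891 and 676 to 917 without 1 library, the lowest of the first being without shmiR155HG replicate 2. In the 5 related lists 19 genes were higher and 8 lower, against 12 higher with the GC correction, and without 1 library 15 to 20 were higher and 3 to 7 lower. Genes called higher within the neighbourhood numbered 8 within 500 kb and 3 within 250 kb. With canonical lengths the levels in shCtrl were 71.1 CPM per kilobase for KLRC1, 3.92 for KLRD1, 60.6 for KIR2DL4, 11.8 for LILRB1, 8.64 for TIGIT, 73.2 for CD96, 19.4 for HAVCR2 and 10.3 for LAG3. Deviations of libraries with the same replicate number correlated at -0.013, 0.012 and 0.020, so the number was not taken as a pairing. With a replicate block 829 genes were higher and 909 lower, 2 and 1 of them receptors. Where a call changed, the cause was not tested, except that fits without a library hold fewer samples. KLRB1 and PDCD1 were too low for any statement.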
